A study of Mus musculus with 14 samples.

Results

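The genes described here are 10 cyclic nucleotide phosphodiesterases of the mouse, matched by gene symbol: Pde3a, Pde3b, Pde4a, Pde4b, Pde4c, Pde4d, Pde7a, Pde7b, Pde8a and Pde10a. The set was chosen with earlier results of these data known, and other phosphodiesterases of the mouse are in a separate list below. All 10 were found among the 49671 genes of the count table, and 8 of them were among the 15973 genes that passed the low-count filter and were tested. Pde4c and Pde7b did not pass it. RNA came from C2C12, an established mouse myoblast line that fuses into myotubes when serum is lowered, and was sequenced in 14 libraries, 2 per group. In medium DM3 the cells received 2% horse serum (HS) together with a cocktail of 1 µg/ml insulin, 0.5 mM IBMX, 0.5 µM dexamethasone and 2 µM rosiglitazone. In medium DM2 they received the same cocktail in 10% fetal calf serum (FCS), and in medium DM1 2% HS without the cocktail. DM3, DM2 and DM1 were each sampled at day 2 and day 7, with the medium changed every other day, and growing cells in 20% FCS were sampled at day 0. The labels do not say that the 2 libraries of a group came from separate cultures, so the p-values rest on library-to-library spread that may be only technical.

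Phosphodiesterases hydrolyse cAMP, cGMP or both, and so end the signal that receptors coupled to the G protein Gs start through adenylyl cyclase and that protein kinase A carries on. Enzymes of the PDE4, PDE7 and PDE8 families are selective for cAMP, while PDE3 and PDE10 enzymes hydrolyse both nucleotides. IBMX is a xanthine that inhibits most phosphodiesterase families, PDE8 being one of the known exceptions, and it is a standard part of the cocktail that turns preadipocytes into fat cells. Transcription of several PDE4 genes is known from other cells to follow cAMP through the factor CREB. IBMX was never given here without the other 3 agents, so their parts in a difference cannot be told apart. The cocktail is what differs between DM3 and DM1, both at 2% HS. DM2 and DM1 differ in cocktail and serum, and DM3 and DM2 in the source and concentration of serum.

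The libraries held 21907617 to 29784885 expected counts, and 17750 to 21111 genes had at least 1 count. Replicate 2 of DM3 at day 2 stood apart, with 0.584% of its counts in processed pseudogenes against 1.28% to 3.86% in other libraries. It also had the fewest genes with at least 1 count (17750). The DM3 pair at day 2 had the lowest Spearman correlation between replicates, 0.962 against 0.987 to 0.995 in the other groups. This replicate and replicate 1 of day 0 and of DM1 at day 2 formed the 3 libraries of low share, and results that change without them are given so. The summed level of 8 myoblast and muscle markers was 19730 to 20623 CPM (counts scaled to a library of 1e6) in DM3 at day 7 and 1236 to 2686 CPM in the other groups. Of 8 adipocyte markers the sum was 13.1 to 28.5 CPM over all groups, most of it Pparg (means of 11.0 to 23.6 CPM). The leptin gene Lep was at 0 in every group, and in DM2 at day 7 it was the only adipocyte marker at 0. Fabp4 (6.74 CPM), Plin1 (0.917 CPM), Cidec (0.538 CPM) and Adipoq (0.247 CPM) had their highest means in DM2 at day 7, where Pparg had its lowest. Sums of 5 leukocyte markers (1.25 to 6.81 CPM) and of 5 endothelial markers (1.20 to 7.30 CPM) were low throughout. In bulk RNA, more RNA per cell and more cells of a kind cannot be told apart.

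With the cocktail at 2% HS, Pde4b and Pde4d, both cAMP-specific, stood above DM1 at day 2 and at day 7, Pde4b by 4.52-fold and 5.58-fold. Pde3b and Pde7a stood above DM1 at day 2 and were not called at day 7, and Pde4a, Pde3a, Pde8a and Pde10a stood below DM1 at day 7. A gene was called where edgeR's quasi-likelihood test gave a Benjamini-Hochberg adjusted p under 0.05 over all tested genes. By that rule 4 of the 8 tested genes were higher in DM3 than in DM1 at day 2 and 0 were lower (8 genes tested, 4 not called), while 37.0% of all tested genes were called. At day 7, 2 were higher and 4 lower, with 47.7% of all tested genes called. The median log2 fold change of the 8 was 0.50 at day 2, against -0.02 over all tested genes, and -0.18 at day 7, against 0.00 over all tested genes. The counts of 4 and 6 among 8 genes lay above those shares, and the difference from all genes was not tested.

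**Figure D1:**
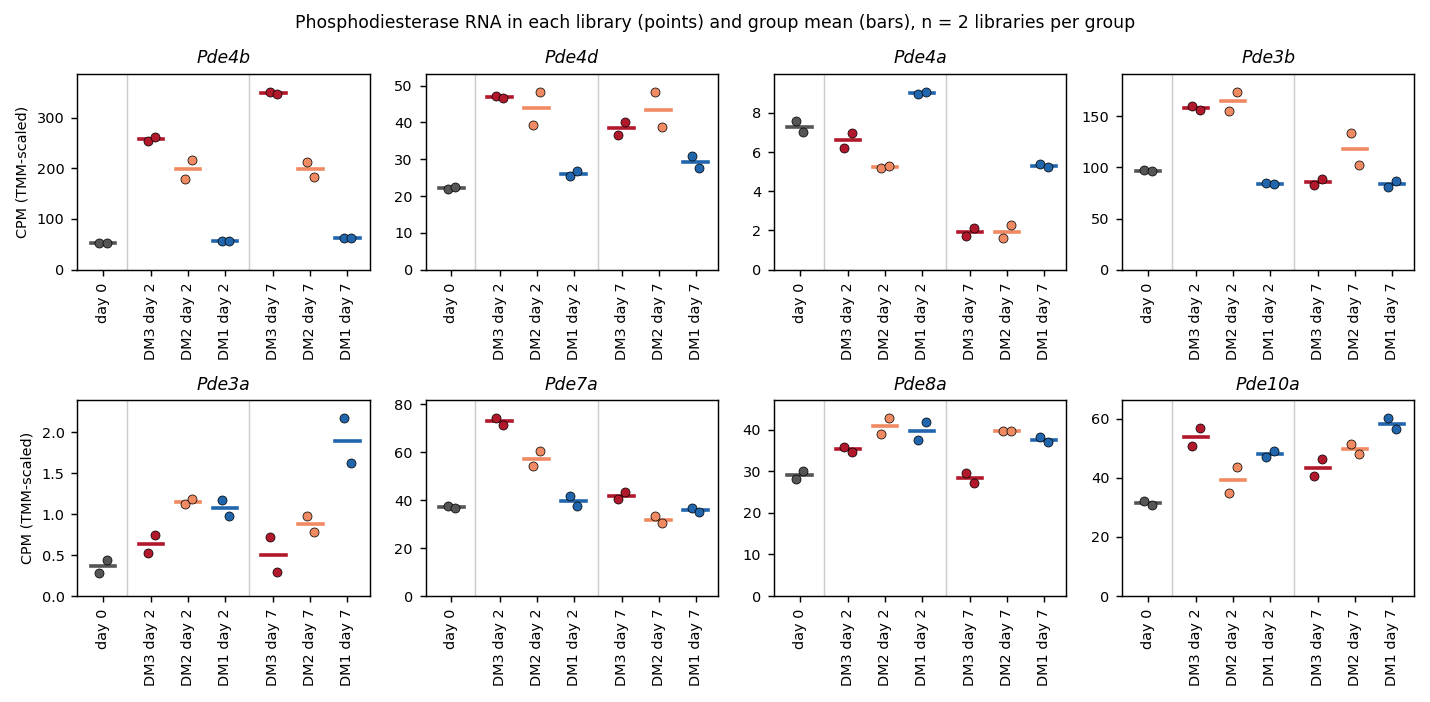
Level of the 8 tested phosphodiesterases in each library (CPM, linear axes from 0, scaled by TMM), with groups along the horizontal axis from day 0 to day 7; points are libraries and bars the mean of 2. Pde4b lay between 178 and 351 CPM in all 8 libraries with the cocktail and between 52.5 and 63.3 CPM in the 6 without it.

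Among the 4 PDE4 genes, Pde4b showed the widest separation. At day 0 it had 53.0 and 52.5 CPM. At day 2 it had 253 and 261 CPM in DM3, 178 and 217 CPM in DM2, and 57.2 and 56.6 CPM in DM1. At day 7 it had 351 and 347 CPM in DM3, 213 and 183 CPM in DM2, and 61.7 and 63.3 CPM in DM1. The cocktail groups and the groups without it did not overlap on either day, and DM3 lay above DM2 on both. In DM3 against DM1 the log2 fold change was 2.18 ± 0.10 (standard error, SE) at day 2 (adjusted p = 4.07e-08, edgeR) and 2.48 ± 0.10 at day 7 (adjusted p = 6.00e-09), and both calls held under all 23 alternative settings. In DM2 against DM1 it was 1.80 ± 0.10 and 1.66 ± 0.10 (adjusted p = 1.13e-07 and 5.81e-08, edgeR). The change of the difference between DM3 and DM1 from day 2 to day 7 was 0.30 ± 0.14 (adjusted p = 0.111, edgeR) and was not called, though it was without replicate 1 of DM2 at day 2 (0.33). In DM1 against day 0 the log2 fold change was 0.11 ± 0.10 at day 2 and 0.24 ± 0.10 at day 7, neither called (adjusted p = 0.471 and 0.0543, edgeR). The second was called with library totals alone as the scale (0.27), without replicate 2 of DM2 at day 2, and without either replicate of DM2 at day 7.

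Pde4b lies on chromosome 4 at 102087543 to 102607259 of GRCm38, on the plus strand, and Pde4d on chromosome 13 at 108449948 to 109953461, also on the plus strand (Gencode vM21 annotation). The annotation gives Pde4b 13 transcripts and Pde4d 20, with several starts each, and gene-level counts do not show which start was used. RefSeq promoters of GRCm38.p6 were found for 7 of the 10 genes, in 13 windows of 250 bases before a start. They are shown for the pair that stood above DM1 on both days and for Pde8a, of the family that IBMX does not inhibit. Capitals mark the half-site of the cAMP response element (TGACG, or CGTCA on the other strand) and the E-box CAGCTG, which reads the same on both strands; the 2 motifs did not overlap in these windows.
Pde4b, the first of 4 windows (chr4:102421305-102421554, plus strand): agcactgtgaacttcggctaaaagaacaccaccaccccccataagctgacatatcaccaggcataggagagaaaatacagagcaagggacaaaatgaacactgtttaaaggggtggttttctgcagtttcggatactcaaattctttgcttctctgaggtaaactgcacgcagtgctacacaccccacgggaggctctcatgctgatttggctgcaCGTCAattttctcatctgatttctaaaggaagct
Pde4d (chr13:108653927-108654176, plus strand): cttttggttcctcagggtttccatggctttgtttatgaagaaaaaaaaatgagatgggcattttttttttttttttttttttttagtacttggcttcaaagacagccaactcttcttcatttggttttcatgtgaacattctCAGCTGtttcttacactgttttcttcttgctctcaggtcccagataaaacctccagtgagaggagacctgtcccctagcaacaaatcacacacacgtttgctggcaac
Pde8a (chr7:81213015-81213264, plus strand): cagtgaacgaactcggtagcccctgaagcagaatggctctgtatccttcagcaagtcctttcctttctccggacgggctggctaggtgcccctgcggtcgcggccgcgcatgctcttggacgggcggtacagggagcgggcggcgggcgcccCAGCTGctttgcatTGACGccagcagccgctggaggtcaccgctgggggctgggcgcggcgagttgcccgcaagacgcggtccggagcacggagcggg
The Pde4b window shown holds 1 half-site, whose first base lies 34 bases before the start, and the other Pde4b windows hold none. The Pde8a window holds 1 half-site, 84 bases before the start, and 1 E-box, and the Pde4d window holds 1 E-box. The Pde4b and Pde4d windows all lie inside the annotated genes, so the first annotated start of each gene was not searched. Over the 13 windows the half-site was found in 3, the third being the second window of Pde4a, and over 32851 RefSeq mouse promoters in 17.77%. The full response element TGACGTCA, which contains both forms of the half-site, was found in 0 of the 13 windows and in 1.55% of all promoters. The E-box was found in 4 of the 13 and in 13.0% of all. These are matches of letters and not measured sites.

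Pde4d, whose product is an abundant PDE4 enzyme of muscle and heart, rose with the cocktail by less than Pde4b. At day 0 it had 21.9 and 22.5 CPM. By day 2 the levels were 47.2 and 46.6 CPM in DM3, 39.3 and 48.3 CPM in DM2, and 25.4 and 26.8 CPM in DM1. By day 7 they were 36.7 and 40.0 CPM in DM3, 48.3 and 38.6 CPM in DM2, and 30.7 and 27.7 CPM in DM1. Both cocktail media lay above DM1 in every library on both days, and DM3 and DM2 overlapped with each other. The log2 fold change of DM3 against DM1 was 0.85 ± 0.12 at day 2 (adjusted p = 0.000188, edgeR) and 0.39 ± 0.12 at day 7 (adjusted p = 0.0177, edgeR). The call at day 7 was lost without replicate 2 of DM1 at day 7 (0.32, adjusted p = 0.125), without replicate 2 of DM3 at day 7 (0.33, adjusted p = 0.109) and with library totals alone as the scale (0.16). The change of that difference from day 2 to day 7 was -0.45 ± 0.17 (adjusted p = 0.0571, edgeR) and was not called, but was called under 6 alternatives. The log2 fold change of DM2 against DM1 was 0.75 ± 0.12 at day 2 and 0.57 ± 0.12 at day 7 (adjusted p = 0.000438 and 0.00144, edgeR).

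Pde4a went the other way. At day 0 it had 7.57 and 7.02 CPM. By day 2 the level was 6.21 and 6.98 CPM in DM3, 5.21 and 5.27 CPM in DM2, and 8.94 and 9.08 CPM in DM1. By day 7 the level was 1.69 and 2.14 CPM in DM3, 1.62 and 2.26 CPM in DM2, and 5.38 and 5.22 CPM in DM1. The cocktail libraries lay below the DM1 libraries on both days, and DM3 and DM2 lay side by side at day 7. In DM3 against DM1 the log2 fold change was -0.45 ± 0.17 at day 2 (adjusted p = 0.0584, edgeR; called under 5 alternatives) and -1.47 ± 0.18 at day 7 (adjusted p = 3.78e-05, edgeR). In DM2 against DM1 it was -0.78 ± 0.17 at day 2 and -1.45 ± 0.18 at day 7 (adjusted p = 0.00354 and 2.67e-05, edgeR). The difference between DM3 and DM1 changed by -1.02 ± 0.25 from day 2 to day 7 (adjusted p = 0.00765, edgeR), a call that was lost without the 3 libraries of low pseudogene share (-0.91, adjusted p = 0.0614). Pde4c, the fourth PDE4 gene, was near the limit of detection, with 6 counts in the 2 DM1 libraries at day 7 and 0 or 1 count in each other pair. For the pairs with 0 counts the upper limit of the 95% Poisson interval was 0.0636 to 0.0721 CPM, which covers counting error only.

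The PDE3 genes encode enzymes that cGMP inhibits, and PDE3B is known as the enzyme through which insulin lowers cAMP in fat cells. Pde3b had 97.5 and 96.5 CPM at day 0. Day 2 gave 160 and 156 CPM in DM3, 155 and 174 CPM in DM2, and 84.8 and 83.3 CPM in DM1. Day 7 gave 82.8 and 89.1 CPM in DM3, 134 and 102 CPM in DM2, and 80.8 and 86.6 CPM in DM1. All 4 cocktail libraries were high at day 2, while at day 7 the DM3 libraries overlapped those of DM1 and the DM2 libraries alone stayed above. In DM3 against DM1 the log2 fold change was 0.91 ± 0.11 at day 2 (adjusted p = 5.29e-05, edgeR) and 0.04 ± 0.11 at day 7 (adjusted p = 0.817, edgeR), and its change between the days was -0.87 ± 0.16 (adjusted p = 0.0011, edgeR). For DM2 against DM1 it was 0.97 ± 0.11 at day 2 (adjusted p = 3.04e-05, edgeR) and 0.50 ± 0.11 at day 7 (adjusted p = 0.00207, edgeR), the second not called with library totals alone as the scale (0.25, adjusted p = 0.0905). At day 7 Pde3b was lower in DM3 than in DM2 (log2 fold change -0.46 ± 0.11, adjusted p = 0.00382, edgeR), a call lost without replicate 1 of DM2 at day 7 (-0.25, adjusted p = 0.0558).

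Pde3a, the form best known from heart and platelets, was rare. It had 0.279 and 0.443 CPM at day 0. Levels at day 2 were 0.528 and 0.752 CPM in DM3, 1.12 and 1.18 CPM in DM2, and 1.18 and 0.975 CPM in DM1. Levels at day 7 were 0.719 and 0.287 CPM in DM3, 0.979 and 0.778 CPM in DM2, and 2.17 and 1.63 CPM in DM1. The DM1 libraries at day 7 were the highest of the 14, and Pde3a passed the low-count filter through its higher groups. At day 7 the log2 fold change against DM1 was -1.91 ± 0.43 in DM3 (adjusted p = 0.00296, edgeR) and -1.11 ± 0.41 in DM2 (adjusted p = 0.0342, edgeR). Without replicate 1 of DM3 at day 7 the first was -2.70. The second was lost without either replicate of DM1 at day 7 (-0.88 and -1.30) and without either replicate of DM2 at day 7 (-1.28 and -0.95), as well as under DESeq2. At day 2 neither difference was called (-0.73 ± 0.43 in DM3 and 0.10 ± 0.41 in DM2; adjusted p = 0.207 and 0.874, edgeR).

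Pde7a encodes a cAMP-specific enzyme of high affinity that is found in T cells and skeletal muscle. It had 37.5 and 36.8 CPM at day 0. After 2 days it had 74.2 and 71.5 CPM in DM3, 54.2 and 60.4 CPM in DM2, and 41.8 and 37.6 CPM in DM1. After 7 days it had 40.5 and 43.4 CPM in DM3, 33.3 and 30.3 CPM in DM2, and 36.6 and 35.0 CPM in DM1. At day 2 the 3 media formed separate steps with DM3 at the top, and at day 7 the DM2 libraries were the lowest of the 14. In DM3 against DM1 the log2 fold change was 0.88 ± 0.09 at day 2 (adjusted p = 1.21e-05, edgeR) and 0.23 ± 0.09 at day 7 (adjusted p = 0.0514, edgeR; called under 7 alternatives), and its change between the days was -0.65 ± 0.12 (adjusted p = 0.0018, edgeR). Against DM1, DM2 stood at 0.53 ± 0.09 at day 2 (adjusted p = 0.000551, edgeR) and -0.17 ± 0.09 at day 7 (adjusted p = 0.12, edgeR; called with library totals alone, at -0.42). Pde7b had 8 counts in the DM2 pair and 6 in the DM3 pair at day 7, 0 to 2 counts in the other pairs and 0 at day 0, too few for a test. The noncoding gene Gm16093 overlaps 48 exonic bases of Pde7a on the other strand and had 0 counts in all libraries, and Gm28523, which overlaps 741 exonic bases of Pde3a, had 2 counts over the 14 libraries.

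Pde8a encodes a cAMP-specific enzyme that IBMX is known not to inhibit. It had 28.2 and 30.2 CPM at day 0. On day 2 it had 36.0 and 34.8 CPM in DM3, 39.0 and 42.8 CPM in DM2, and 37.6 and 41.9 CPM in DM1. On day 7 it had 29.7 and 27.1 CPM in DM3, 39.6 and 39.8 CPM in DM2, and 38.2 and 37.1 CPM in DM1. DM3 at day 7 overlapped day 0, and the other differentiation groups lay between 34.8 and 42.8 CPM. The log2 fold change of DM3 at day 7 against day 0 was -0.04 ± 0.09 (adjusted p = 0.731, edgeR). With library totals alone as the scale it was -0.25 and called. In DM3 against DM1 the log2 fold change was -0.17 ± 0.09 at day 2 (adjusted p = 0.149, edgeR) and -0.41 ± 0.09 at day 7 (adjusted p = 0.00197, edgeR), and in DM2 against DM1 it was 0.04 ± 0.09 and 0.08 ± 0.09 (adjusted p = 0.739 and 0.477, edgeR). The change of the DM3 difference between the days, -0.24 ± 0.12, was not called (adjusted p = 0.154, edgeR), but was with library totals alone (-0.41).

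Pde10a encodes a dual enzyme best known from the striatum. It had 32.2 and 30.7 CPM at day 0. The day 2 libraries held 50.6 and 56.8 CPM in DM3, 34.7 and 43.7 CPM in DM2, and 46.9 and 49.1 CPM in DM1. The day 7 libraries held 40.7 and 46.3 CPM in DM3, 51.5 and 48.1 CPM in DM2, and 60.2 and 56.6 CPM in DM1. Every differentiation library lay above the 2 of day 0, and at day 7 the order was DM1 above DM2 above DM3 with no overlap. In DM3 against DM1 the log2 fold change was 0.16 ± 0.11 at day 2 (adjusted p = 0.285, edgeR) and -0.42 ± 0.11 at day 7 (adjusted p = 0.00759, edgeR). The call at day 7 was lost without replicate 1 of DM1 at day 7 (-0.37, adjusted p = 0.0539) and without replicate 1 of DM3 at day 7 (-0.33, adjusted p = 0.0883). The change between the days was -0.59 ± 0.16 (adjusted p = 0.0127, edgeR), a call lost without replicate 1 of DM1 at day 2 (-0.55, adjusted p = 0.0535), without replicate 1 of DM3 at day 7 (-0.49, adjusted p = 0.0655) and without the 3 libraries low in pseudogene counts (-0.46, adjusted p = 0.13). For DM2 against DM1 the log2 fold change was -0.29 ± 0.11 at day 2 and -0.23 ± 0.11 at day 7, neither called (adjusted p = 0.0577 and 0.0981, edgeR). The day 2 value was called without replicate 2 of DM2 (-0.47) or replicate 1 of DM3 (-0.29) at day 2. It was also called with library totals alone (-0.31) and with a filter of 1 CPM in 4 libraries (-0.29). The day 7 value was called with library totals alone (-0.48), without replicate 2 of DM2 at day 2 (-0.23) and with only the groups compared (-0.25).

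**Figure D2:**
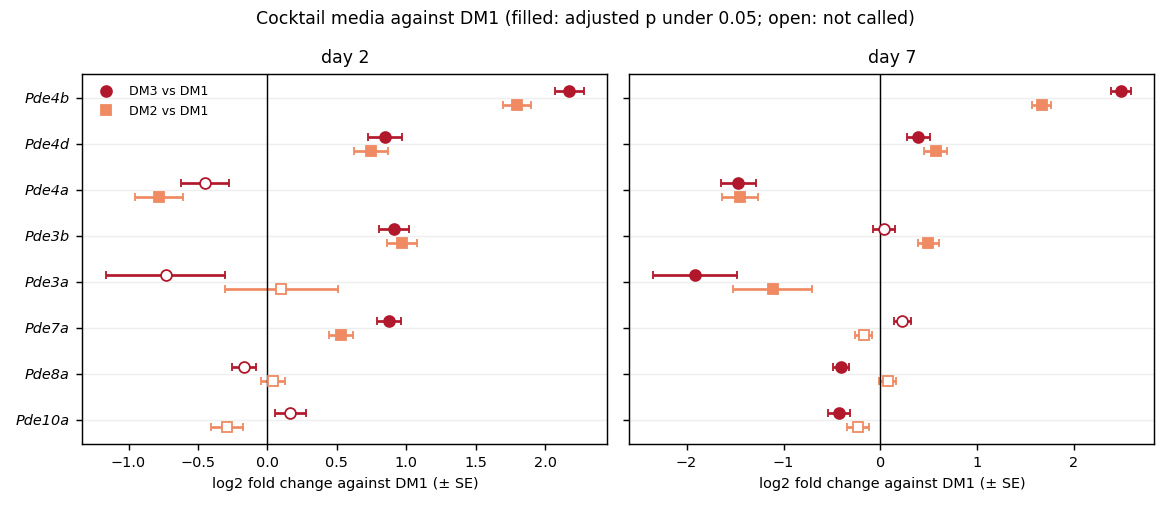
Log2 fold change of each tested phosphodiesterase in DM3 (circles) and DM2 (squares) against DM1 at day 2 and day 7, with bars of 1 SE; filled symbols had an adjusted p under 0.05. Pde4b stands at 2.18 and 2.48 in DM3, and Pde4a, Pde3a, Pde8a and Pde10a lie below 0 in DM3 at day 7.

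The difference between DM3 and DM1 changed from day 2 to day 7 in 4 of the 8 genes, all towards lower values (Pde3b, Pde4a, Pde7a and Pde10a), while 34.9% of all tested genes were called in that test. The median change of the 8 was -0.62, against -0.01 over all tested genes. The summed muscle marker RNA, given above, was far higher in DM3 at day 7 than in DM1 at day 7 or DM3 at day 2. Acta1 (12964 CPM) and Myh3 (3201 CPM) made up most of that sum, and Des, Myog and Ckm were also higher. Myod1, Myf5 and Cdh15 were near or below their level in DM3 at day 2 (68.8, 200 and 444 CPM against 66.1, 207 and 547 CPM). The part of muscle marker RNA in these differences was not tested.

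In DM2 against DM1, 4 genes were higher at day 2 (Pde3b, Pde4b, Pde4d and Pde7a) and 1 lower (Pde4a), with 39.4% of all tested genes called. These 4 are the genes that were also higher in DM3 at that day, and both comparisons share the DM1 libraries. At day 7, 3 were higher (Pde3b, Pde4b and Pde4d) and 2 lower (Pde3a and Pde4a), with 57.8% of all tested genes called. In DM3 against DM2, where only serum differs, 3 genes were higher at day 2, with 16.3% of all tested genes called: Pde4b by 0.38 ± 0.10, Pde7a by 0.35 ± 0.09 and Pde10a by 0.45 ± 0.11 on the log2 scale (adjusted p = 0.0215, 0.0196 and 0.0175, edgeR). None of these 3 calls held without replicate 2 of DM3 at day 2 (0.36, 0.37 and 0.37; adjusted p = 0.104, 0.0634 and 0.132) or without replicate 1 of DM2 at day 2 (0.25, 0.27 and 0.30; adjusted p = 0.19, 0.164 and 0.165). At day 7, 2 were higher in DM3 than in DM2, Pde4b by 0.82 ± 0.10 and Pde7a by 0.40 ± 0.09, and 2 lower, Pde3b as given above and Pde8a, at -0.48 ± 0.09 (adjusted p = 1.94e-05, 0.00232 and 0.000482 for Pde4b, Pde7a and Pde8a, edgeR), with 52.7% of all tested genes called.

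Against day 0, the DM3 cells had 6 genes higher at day 2 and 0 lower, with 50.9% of all tested genes called, and 3 higher and 1 lower at day 7, with 59.0% called. Pde4b was the farthest from day 0 in both, by 2.28 ± 0.10 at day 2 and 2.72 ± 0.10 at day 7 on the log2 scale (adjusted p = 8.34e-09 and 6.23e-10, edgeR), followed by Pde4d at day 2 (1.08 ± 0.12) and by Pde4a at day 7 (-1.93 ± 0.18, adjusted p = 1.77e-06, edgeR), where Pde4d stood at 0.79 ± 0.12. The DM2 cells had 7 higher and 1 lower at day 2, with 49.7% of all tested genes called, and 6 higher and 2 lower at day 7, with 55.4% called. The DM1 cells had 3 higher and 0 lower at day 2, with 29.7% called, and 4 higher and 1 lower at day 7, with 53.5% called. In DM1 the genes that rose on both days were Pde3a (1.56 ± 0.45 and 2.38 ± 0.44), Pde8a (0.45 ± 0.09 and 0.37 ± 0.09) and Pde10a (0.61 ± 0.11 and 0.89 ± 0.11). Of these, Pde10a was also higher in DM3 than at day 0 on both days (0.77 ± 0.11 and 0.47 ± 0.11). The second value was not called with library totals alone (0.26). Pde8a was higher in DM3 at day 2 only (0.28 ± 0.09), and Pde3a was not called in DM3 on either day. These 6 comparisons share the 2 libraries of day 0. Several of the smaller calls rested on 1 library. Without replicate 1 of day 0, 5 genes were called in DM2 at day 2, 5 in DM2 at day 7 and 3 in DM1 at day 7, the last also without replicate 2 of day 0 or replicate 1 of DM1 at day 7. Without replicate 1 of day 0 the calls of Pde3a in DM1 at day 2 (1.27), in DM2 at day 2 (1.37) and in DM2 at day 7 (0.98) were lost, as were Pde8a in DM3 at day 2 (0.22) and Pde10a in DM2 at day 2 (0.35). The call of Pde3a in DM1 at day 2 was also lost without either replicate of that group (1.42 and 1.68), that in DM2 at day 7 without either replicate of that group (1.10 and 1.42), and that of Pde8a in DM3 at day 2 without replicate 1 of that group (0.25). Without replicate 2 of DM2 at day 2 Pde10a in that group was 0.14 (adjusted p = 0.354), against 0.32 with it. Without replicate 1 of DM2 at day 7 Pde3b in that group was 0.08 (adjusted p = 0.546), against 0.28 with it. Pde7a in DM2 at day 7 (-0.22) kept its call under 5 of 23 alternatives, Pde3b in that group under 8 of 23, and Pde4a at -0.48 in DM2 at day 2 and -0.46 in DM1 at day 7 lost theirs under DESeq2. Pde4d in DM1 at day 7 (0.40) lost its call without either replicate of day 0 and without replicate 1 of DM1 at day 7.

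**Figure D3:**
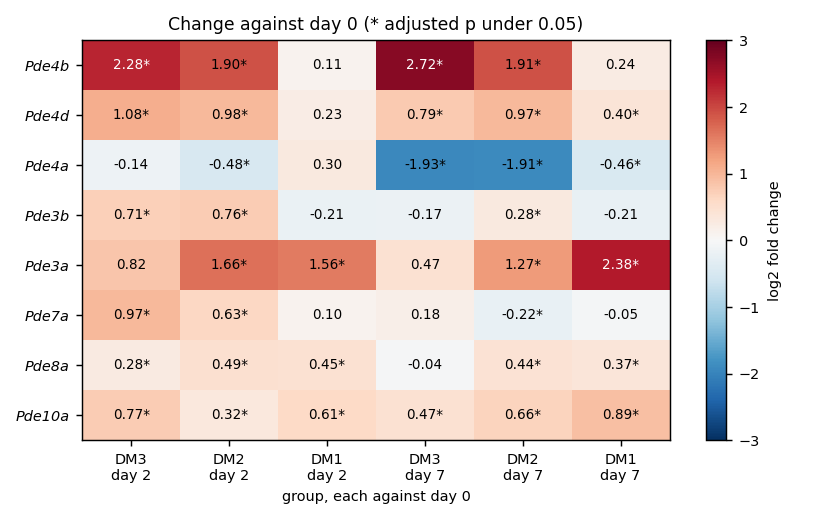
Log2 fold change of each tested phosphodiesterase (rows) in each differentiation group (columns) against day 0, with an asterisk where the adjusted p was under 0.05. Pde4b is at 1.90 or above in the 4 cocktail columns and at 0.11 and 0.24 in the DM1 columns.

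Between day 7 and day 2 of the same medium, DM1 had 0 genes higher and 1 lower, Pde4a (log2 fold change -0.77 ± 0.17, adjusted p = 0.00461, edgeR), with 34.3% of all tested genes called; 2 were called without replicate 2 of DM2 at day 2. DM2 had 1 higher, Pde10a at 0.34 ± 0.11, and 3 lower, Pde3b at -0.48 ± 0.11, Pde4a at -1.43 ± 0.18 and Pde7a at -0.85 ± 0.09 on the log2 scale (adjusted p = 0.0203, 0.00278, 3.31e-05 and 6.63e-06, edgeR), with 54.8% of all tested genes called. The Pde10a call was lost without replicate 1 of DM2 at day 7 (0.30), without replicate 1 of DM2 at day 2 (0.19) and with library totals alone (0.09). DM3 had 1 higher, Pde4b by 0.44 ± 0.10 (adjusted p = 0.0027, edgeR; 0.24 and not called with library totals alone), and 5 lower, with 47.9% of all tested genes called. Those lower were Pde3b (-0.88 ± 0.11), Pde4a (-1.78 ± 0.18), Pde7a (-0.80 ± 0.09), Pde8a (-0.31 ± 0.09, lost without replicate 2 of DM3 at day 7) and Pde10a (-0.31 ± 0.11, kept under 9 of 23 alternatives). Pde4b in DM2, at 213 and 183 CPM at day 7 and 178 and 217 CPM at day 2, overlapped between the days.

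Levels of different genes were compared per kilobase (kb) of exon. At day 0 the order was Pde3b at 10.6 ± 0.07 CPM per kb (SD, n = 2), Pde8a at 7.22 ± 0.36, Pde4b at 5.0 ± 0.03, Pde7a at 4.79 ± 0.07, Pde10a at 2.45 ± 0.08, Pde4d at 1.85 ± 0.03, Pde4a at 0.953 ± 0.051 and Pde3a at 0.0283 ± 0.0091 CPM per kb, with no overlap between neighbours. In DM3 at day 7 Pde4b led with 33.01 ± 0.28 CPM per kb, ahead of Pde3b with 9.43 ± 0.49 and Pde8a with 7.03 ± 0.45 CPM per kb, and Pde10a and Pde4d overlapped. In DM2 at day 2 Pde4b (18.7 ± 2.6 CPM per kb) and Pde3b (18.1 ± 1.4 CPM per kb) overlapped at the top, and in DM1 Pde8a and Pde3b overlapped at the top on both days. The order depends on the length: with the longest annotated transcript in place of all exons, a choice made after seeing the data, Pde4b led in all groups but day 0, where Pde3b did.

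Summed over the 10 genes, the level per length was 68.8 ± 0.1 CPM per kb in DM3, 61.8 ± 6.3 in DM2 and 36.7 ± 0.4 CPM per kb in DM1 at day 2 (SD, n = 2 each). At day 7 it was 61.8 ± 0.5 in DM3, 53.5 ± 5.4 in DM2 and 36.9 ± 0.2 CPM per kb in DM1, and at day 0 it was 32.9 ± 0.1 CPM per kb. The cocktail media therefore lay above DM1 and day 0 in every library. The sum does not show a rise of each gene. At day 7 Pde4b had 33.01 CPM per kb in DM3 and 5.92 in DM1, while Pde4a, Pde3a, Pde8a and Pde10a were lower in DM3. Pde4b made up 35.4% ± 0.7 of the sum in DM3, 30.2% ± 1.1 in DM2 and 14.7% ± 0.3 in DM1 at day 2, and 53.4% ± 0.9 in DM3, 35.1% ± 0.2 in DM2 and 16.0% ± 0.4 in DM1 at day 7, against 15.2% ± 0.1 at day 0. Pde8a made up 11.4% ± 0.8 in DM3 at day 7, 25.3% ± 0.4 in DM1 at day 7 and 21.9% ± 1.0 at day 0. By the longest transcript the share of Pde4b was 65.6% in DM3 at day 7, 24.8% in DM1 at day 7 and 23.8% at day 0, in the same direction.

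**Figure D4:**
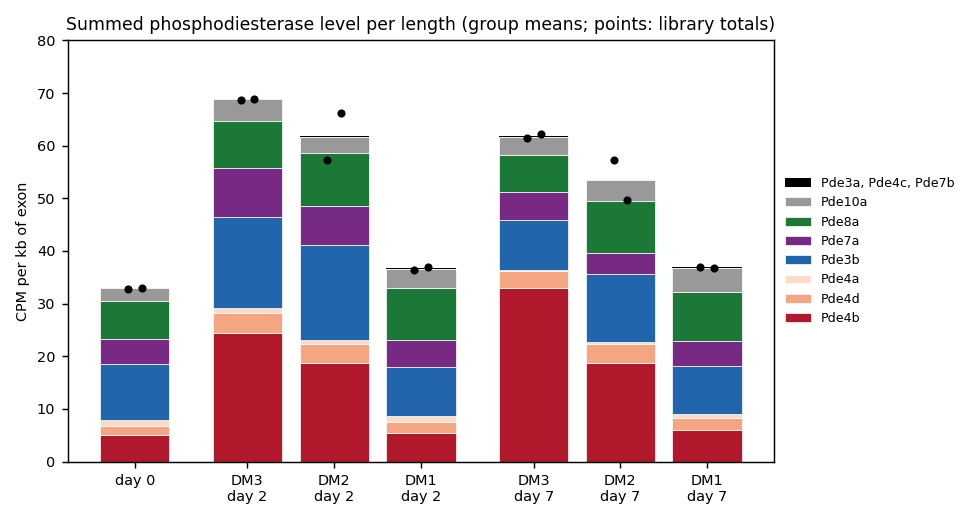
Summed level of the 10 phosphodiesterases per kb of exon (CPM per kb, axis from 0), stacked by gene as means of 2 libraries, with points for the sum in each library. The sum was 61.8 CPM per kb in DM3 at day 7 and 36.9 CPM per kb in DM1 at day 7, and Pde4b is the lowest segment of each bar.

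Across the 14 libraries, the log2 levels of Pde4b and Pde4d had a Pearson r of 0.88 and those of Pde4b and Pde4a an r of -0.67. Pde3b and Pde7a had an r of 0.74, and Pde8a with Pde4b an r of -0.10. The points fall into the 7 groups, and the values describe those groups. Of all tested genes, the 3 most like Pde4b were Acsl4 (r = 0.98), which encodes an acyl-CoA synthetase for long polyunsaturated fatty acids, Slc30a9 (r = 0.98) and Gpam (r = 0.97), which encodes the mitochondrial enzyme of the first step of glycerolipid synthesis. The 3 most like Pde4d were the sialyltransferase gene St8sia4 (r = 0.97), the Wnt receptor gene Fzd4 (r = 0.96) and the receptor gene Pth2r (r = 0.96).

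Other genes of the pathway were taken from 7 lists, and are described for DM3 against DM1, where 37.0% of all tested genes were called at day 2 and 47.7% at day 7. Of 14 other phosphodiesterases 6 were tested. The calmodulin-dependent Pde1a had 3.92 and 3.40 CPM in DM3 and 0.714 and 0.638 CPM in DM1 at day 2, a log2 fold change of 2.43 ± 0.32 (adjusted p = 0.000124, edgeR). At day 7 its levels overlapped, at 8.50 and 10.2 CPM in DM3 and 10.5 and 7.60 CPM in DM1. Pde1b, of the same family, had 4.65 and 4.56 CPM in DM3 and 25.3 and 32.6 CPM in DM1 at day 7, a log2 fold change of -2.65 ± 0.16 (adjusted p = 1.02e-07, edgeR). Pde1b was also lower at day 2 (-0.61 ± 0.15), a call lost without replicate 2 of DM3 at day 2 (-0.50). Pde8b, the relative of Pde8a, had 0 counts in the DM3 pair and 18 in the DM1 pair at day 7 and was called there, but not without replicate 1 of DM1 or without either replicate of DM3 at day 7. Pde8b passed the low-count filter through its higher groups, with the most counts in the DM1 pairs (20 at day 2). Its call is therefore not independent of the filter. No other phosphodiesterase of the list was called with all libraries, but without either replicate of DM2 at day 2 the list had 1 higher and 3 lower at day 7, and with only the groups compared 2 and 2.

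Among the makers of cAMP, 6 of 10 adenylyl cyclase genes were tested, and 2 were lower in DM3 at day 2 and 4 at day 7, with 0 higher on either day. Adcy7 had 207 and 232 CPM in DM3 and 443 CPM in both DM1 libraries at day 2, a log2 fold change of -1.01 ± 0.13 (adjusted p = 7.23e-05, edgeR). Adcy8, a calcium-stimulated cyclase, was rare and lower on both days, with 10 counts in the DM3 pair and 31 in the DM1 pair at day 2, and 13 counts in DM3 and 57 in DM1 at day 7. Its call at day 2 was lost without replicate 2 of DM1 or of DM3 at that day (-1.32 and -1.45), and without replicate 1 of DM1 or of DM3 at day 2 the list had 1 gene higher. Adcy3 had 1 count in DM3 and 12 in DM1 at day 7, and its call was lost under DESeq2, without replicate 1 of DM1 at day 7, without either replicate of DM3 at day 7 and under other alternatives. Of 14 tested genes for G proteins and receptors, 3 were higher and 4 lower at day 2 (2 and 1 without replicate 1 of DM1 at day 2), and 2 higher and 6 lower at day 7. The largest fitted changes there were in rare receptors: Adora2a had 3 counts in DM3 and 43 in DM1 at day 2, Glp1r had 1 in DM3 and 14 in DM1 at day 2 and 0 in DM3 and 10 in DM1 at day 7, and the prostaglandin receptor gene Ptger2 had 6 in DM3 and 59 in DM1 at day 7. The Glp1r call at day 2 was lost without replicate 1 of DM1 or of DM3 at that day.

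Among the carriers of the signal, 8 of 9 genes for subunits and inhibitors of protein kinase A were tested, with 2 higher and 1 lower at day 2 and 5 higher and 0 lower at day 7. Without replicate 2 of DM1 at day 2 the day 2 counts were 1 and 0. The regulatory subunit gene Prkar2b had 402 and 383 CPM in DM3 and 194 and 187 CPM in DM1 at day 2 (log2 fold change 1.04 ± 0.09, adjusted p = 2.94e-06, edgeR). Pkia, which encodes an inhibitor of the kinase, had 217 and 187 CPM in DM3 and 54.4 and 49.3 CPM in DM1 at day 7 (1.96 ± 0.11, adjusted p = 4.07e-08, edgeR). At day 2 Pkia was lower in DM3 (-0.31 ± 0.10), a call lost without either replicate of DM1 or replicate 2 of DM3 at day 2 (-0.33, -0.28 and -0.21). The subunit gene Prkar1b was higher at day 7 (1.57 ± 0.45, 60 counts in DM3 and 22 in DM1), a call lost without replicate 2 of DM1 (1.32) or replicate 1 of DM3 (1.29) at day 7. Of 6 tested genes for other proteins that bind cAMP, 2 were higher and 1 lower at day 2, and 4 higher and 1 lower at day 7 (2 lower without most single libraries). Rapgef3, which encodes the exchange factor EPAC1, was lower on both days (-1.79 ± 0.34 and -3.05 ± 0.37, adjusted p = 0.0013 and 3.00e-05, edgeR), while Bves at day 2 (0.89 ± 0.07) and Popdc2 at day 7 (3.31 ± 0.36), both of the Popeye family of striated muscle, were higher.

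Of 17 tested anchoring proteins and phosphodiesterase partners, 5 were higher and 1 lower at day 2, led by Akap12 (0.79 ± 0.12) and the beta-arrestin gene Arrb1 (0.76 ± 0.15). At day 7, 6 were higher and 0 lower, led by Akap1 (1.09 ± 0.08) and by Pde4dip, which encodes myomegalin (0.77 ± 0.09). At day 7 the counts were 3 and 0 without replicate 1 of DM1 or replicate 1 of DM3 at that day, and 4 and 1 without replicate 2 of either; at day 2 they were 3 and 1 without either replicate of DM1 at day 2. With library totals alone as the scale, 2 of these 17 genes were higher and 6 lower at day 7, so the direction of the list depends on the scale there. Of 20 tested genes of the CREB family and its targets, 6 were higher and 5 lower at day 2, and 6 higher and 4 lower at day 7 (4 and 9 with library totals alone). Per1, a clock gene that both cAMP and glucocorticoids are known to induce, had 178 and 200 CPM in DM3 and 34.2 and 34.9 CPM in DM1 at day 2 (2.46 ± 0.11, adjusted p = 2.52e-08, edgeR). At day 7 its levels overlapped, at 169 and 191 CPM in DM3 and 165 and 188 CPM in DM1. Rgs2 was higher by 6.24 ± 0.31 at day 2, the kinase gene Sik1 by 2.24 ± 0.10 at day 7, and the growth factor gene Areg was lower, at -2.35 ± 0.18, at day 7 (adjusted p = 3.93e-07, 1.17e-08 and 6.36e-07, edgeR). The wide gap in Rgs2 was confined to day 2, with 2651 counts in the DM3 pair and 35 in the DM1 pair. By day 7 Rgs2 was high in both, with 3338 counts in DM3 and 2083 in DM1.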

How the data were processed

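RNA of 14 C2C12 libraries in 7 groups of 2 was measured by strand-specific, poly(A)-selected RNA sequencing with single-end reads of 50 bp and 11 cycles of PCR, per the labels' protocols. The authors aligned reads with STAR 2.5.1b to GRCm38.p5, using Gencode vM12 genes, and deposited expected counts (estimated counts) per gene from RSEM 1.2.31, not normalized, as the design text and the submitters' processing notes state. The strand setting of RSEM is not given in the sources used here.

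After rounding to whole numbers, counts were analysed in R 4.3.3 with edgeR 4.0.16 and limma 3.58.1. Genes were filtered with filterByExpr by group (minimum count 10), libraries scaled by TMM, and all 14 fitted in one model with 7 residual degrees of freedom. 16 comparisons were tested by the quasi-likelihood F test with robust fitting, with Benjamini-Hochberg adjustment over 15973 genes and a threshold of 0.05. SE is the absolute log2 fold change over the square root of F. CPM are counts scaled to 1e6 per TMM-scaled library; a level of 3 counts is 0.102 to 0.132 CPM, which covers counting error only. Library totals ranged from 21907617 to 29784885. Correlations used log2 CPM with a prior count of 2. Exon lengths came from Gencode vM21.

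The phosphodiesterases and the 7 lists were chosen with earlier results of these data known. List genes were named where they had one of the 2 largest absolute log2 fold changes among those called, and similar genes are the 3 of highest r for members called in DM3 against DM1 on both days. The listed symbol Gnb2l1 was not matched. Alternatives were other scalings, DESeq2 1.42.0, no or a stricter filter (1 CPM in 4 libraries), only the groups compared, a replicate block, unrounded counts, and libraries left out. Scripts were tested on simulated data.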

Additional observations from a re-analysis of the deposited data

Results flagged for a closer look

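In 4 genes the difference between DM3 and DM1 itself differed between day 7 and day 2, by the interaction contrast of edgeR's quasi-likelihood test. On the log2 scale the difference at day 7 minus that at day 2 was -0.87 for Pde3b, -1.02 for Pde4a, -0.65 for Pde7a and -0.59 for Pde10a (adjusted p = 0.0011, 0.00765, 0.0018 and 0.0127). Groups of 2 libraries are too small for a check of single outlying libraries.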

How the results depend on the processing

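Of 76 called log2 fold changes of phosphodiesterases, 49 were called under every one of 23 alternatives and 0 reversed. The number of genes called moved by over 1.5 times as follows. With only the groups compared it was 5 for DM1 at day 2 against day 0, 2 for DM1 at day 7 against day 2 and 0 for DM3 against DM2 at day 2. Without the 3 libraries of low pseudogene share it was 5 for DM2 at day 2 and 5 for DM2 at day 7 against day 0, 2 for DM1 at day 7 against day 0, 0 for DM3 against DM2 at day 2 and 2 for the change of DM3 minus DM1 between days. With library totals alone it was 5 for DM2 at day 7 against day 0.

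Leaving out 1 library at a time gave, as lowest and highest numbers called, 5 and 8 for DM2 at day 2 against day 0, 3 and 7 for DM1 at day 7 against day 0, 5 and 8 for DM2 at day 7 against day 0, 0 and 3 for DM3 against DM2 at day 2, and 1 and 2 for DM1 at day 7 against day 2. Moves by over 1.5 times came without replicate 1 of day 0 in the first 3, also without replicate 2 of day 0 or replicate 1 of DM1 at day 7 in the second, without replicate 2 of DM3 or replicate 1 of DM2 at day 2 in the fourth, and without replicate 2 of DM2 at day 2 in the last.

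Values that changed sign were not called in either fit. With library totals alone, DM3 against DM1 at day 7 was -0.198 for Pde3b and -0.00832 for Pde7a, DM2 against DM1 at day 7 was -0.178 for Pde8a, and DM3 at day 7 against day 0 was -0.033 for Pde7a. Without the 3 libraries Pde8a in DM2 against DM1 at day 2 was -0.0385. Leaving out 1 library gave ranges of -0.0101 to 0.0949 for Pde3b in DM3 against DM1 at day 7, -0.0393 to 0.123 for Pde8a and -0.0283 to 0.236 for Pde3a in DM2 against DM1 at day 2, and -0.104 to 0.0268 for Pde8a and -0.324 to 0.983 for Pde3a in DM3 at day 7 against day 0. Library totals alone moved the median of all genes by -0.23 in DM3 and -0.25 in DM2 against DM1 at day 7, and the share of calls that were higher to 27.3% in DM3, against 47.5% with TMM.

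Replicate numbers did not pair the libraries consistently. Over 21 pairs of groups the deviations of same-numbered libraries correlated at a median r of 0.01, with 2 pairs over 0.1. The range was wide, from -0.63 to 0.52, so some groups shared deviations in the same or the opposite direction. What they shared was not tested. With the replicate block 6 genes were called in DM2 at day 7 against day 0, Pde3b and Pde7a losing their calls, and no other call on a phosphodiesterase changed. The causes of these changes were not tested. With 2 libraries per group small differences can be missed, and those that were called often depended on single libraries. Pde4c and Pde7b, at a few counts, could not be tested.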
